A study of Mus musculus with 12 samples.

Results

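The mRNAs of the proteasome were followed between a non-polysomal and a polysomal RNA pool of 3T3-L1 cells, before hormonal induction of adipogenesis and 6 h after it. Members were all non-control probes whose transcript accession belongs to a gene named as a proteasome subunit, chaperone or activator (Psma, Psmb, Psmc, Psmd, Psme, Psmf or Psmg with a number, and Psme3ip1, which codes for a protein bound to Psme3), with pseudogenes left out. They came to 69 of 41174 probes and to 49 genes. Of the 69 probes, 65 were well above background on all 12 arrays and are called bright below, 2 were so on no array (Psma8 and the second probe of Psmb11), and 2 on some arrays (the main probe of Psmb11 on 1 and the third probe of Psme4 on 10). Where a gene had several probes, its main probe was the one well above background on most arrays and then the one with the highest mean signal.

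3T3-L1 is an established mouse fibroblast line that turns into adipocytes in culture. All cells were grown to confluence, and the 6 h cells then received 0.5 mM isobutylmethylxanthine (IBMX), 1 µM dexamethasone and 5 µg/ml insulin in medium with fetal bovine serum in place of newborn bovine serum, whereas the 0 h cells received none of them and were taken at the start, so that treatment, serum and time cannot be told apart. Lysates with cycloheximide were spun through sucrose gradients, and the non-polysomal pool (np) was made of gradient fractions 5 to 7, the polysomal pool (p) of fractions 9 to 11. Each of the 4 groups np0, p0, np6 and p6 had 3 biological replicates, each measured on its own one-color Agilent array. The values are log2 background-subtracted Cy3 intensities, scaled between arrays by RNAs spiked into every sample.

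The proteasome degrades proteins tagged with ubiquitin. Its core is a barrel of outer alpha rings, which gate the entry, and inner beta rings, in which Psmb5, Psmb6 and Psmb7 carry the active sites. A regulatory particle caps the barrel, with a base of ATPases that unfold the substrate and scaffold subunits, and a lid that removes ubiquitin. Interferon induces Psmb8, Psmb9 and Psmb10, which replace Psmb5, Psmb6 and Psmb7 in newly assembled immunoproteasomes and change the peptides made for antigen presentation. Adipogenesis is known to involve both turnover of regulators and a rebuilding of the translation machinery, and an mRNA in polysomes carries several ribosomes.

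The cells showed the markers of their label, and most of 5 markers of mature adipocytes at both times. All 10 fibroblast and preadipocyte markers were well above background on all arrays. All 5 genes known to answer the hormones rose in the polysomal fraction, led by Fkbp5 with 4.53 and Cebpb with 4.35 on the log2 scale. The mature adipocyte markers Adipoq, Fabp4, Plin1 and Cidec were well above background on all arrays, also before induction, and Lep on none. Before induction Fabp4 was strong (mean 14.31 on np0), but Cidec (3.80 on np0 and 3.88 on p0) and Adipoq on np0 (3.72) were weak. The lowest probe well above background averaged 2.93 on np0 and 2.97 on p0. By their main probes, Cidec (1.53), Fabp4 (0.97) and Adipoq (0.89) rose in the polysomal fraction and Plin1 fell (-0.91). Leukocyte markers were near the limit of detection (Ptprc and Adgre1 on 1 array each), except Cd14, which was bright and rose by 1.57 in the polysomal fraction. Of the endothelial markers 2 of 3 and of the epithelial markers 3 of 4 stayed below detection on all arrays. Krt8 was detected on all 12 by 1 of its probes, and 1 probe of Cdh5 was well above background on all 3 p6 arrays and on no other. The part of such cells in the results below was not tested. Between 55.7% and 60.8% of the probes of an array were well above background, no spot was saturated, and the number of arrays limits the precision. The spike-ins read 0.35 ± 0.14 (SD, n = 3) below their overall mean on the p6 arrays and 0.10 to 0.13 above it in the other groups, so the scaling itself raised p6 for every probe, and changes are therefore given beside the same value over all bright probes.

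Most proteasome mRNAs were found in polysomes at both times, and by more than the typical bright probe. In such bulk samples, fewer cells of a type and less RNA per cell cannot be told apart. At 0 h, 63 of the 69 member probes were higher in the polysomal fraction and 2 were lower at an adjusted p below 0.05, where 37.1% of all probes were higher and 14.9% lower (64% and 21.1% of the bright probes). At 6 h, 65 were higher and 2 lower, beside 60% and 9.96% of all probes (75.7% and 13.6% of the bright ones). The median polysomal excess over the member probes was 1.98 on the log2 scale at 0 h and 2.91 at 6 h. Over all bright probes it was 0.88 and 1.32. Of the 69 member probes, 61 lay above the bright median at 0 h and 62 at 6 h.

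The excess differed between parts of the complex, by description only and with 1 main probe per gene. The 6 base ATPases (Psmc1 to Psmc6) lay between 2.10 and 2.92 at 0 h, with a median 1.68 above that of the bright probes. The base scaffold and ubiquitin receptor subunits Psmd1, Psmd2 and Psmd4 lay between 2.21 and 2.58, and the 8 lid subunits between 1.37 and 3.32. In the core, the 7 constitutive beta subunits lay between 1.37 and 2.51, and 7 of the 8 alpha subunits were called, with a median 0.67 above that of the bright probes when the undetected Psma8 is counted. The immunoproteasome subunits stood lowest among these groups, at 0.98 for Psmb10, 0.82 for Psmb9 and 1.79 for Psmb8, with a median 0.10 above that of the bright probes. The medians of the regulatory particle groups were thus above those of both core rings, and the values of single subunits overlapped between groups.

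**Figure D1:**
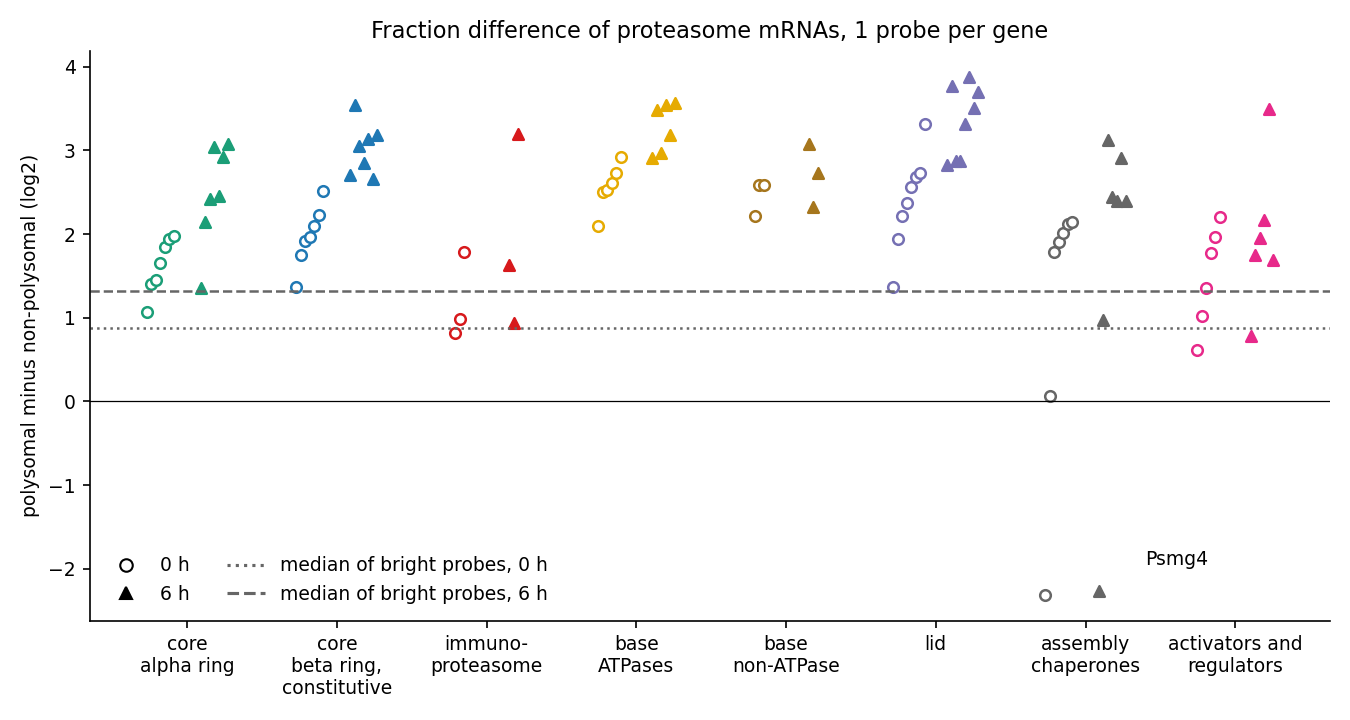
Polysomal minus non-polysomal log2 signal (y axis) of the main probe of each gene, by part of the proteasome (x axis), at 0 h (open circles) and 6 h (filled triangles), for genes bright on all arrays. The dotted and dashed lines mark the median of all bright probes at 0 h (0.88) and 6 h (1.32). ATPase, base and lid subunits lie above both lines at both times, and Psmg4 lies near -2.3 at both.

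The lid subunit Psmd12 had the highest polysomal excess of all members at 0 h. It read 10.34, 10.34 and 10.16 on the non-polysomal arrays and 13.41, 13.72 and 13.68 on the polysomal arrays at 0 h. These groups did not overlap, and the difference was 3.32 ± 0.10 (SE, n = 3 arrays per group; 10.0-fold; adjusted p = 2.0e-09). Among the ATPases, Psmc1 read 10.05, 10.22 and 10.10 non-polysomal and 12.76, 12.98 and 12.81 polysomal, a 6.63-fold excess (2.73 ± 0.08, adjusted p = 1.6e-09).

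Psmg4 was lower in polysomes than outside them, the only main probe with such a call. Psmg4 codes for a chaperone that, as a dimer with Psmg3, helps to assemble the alpha ring. It read 11.85, 11.92 and 11.83 on the np0 arrays and 9.45, 9.68 and 9.54 on the p0 arrays, and 12.82, 12.81 and 12.89 on np6 against 10.57, 10.51 and 10.64 on p6. All polysomal arrays were below all non-polysomal arrays at the same time, by 2.31 ± 0.08 at 0 h (adjusted p = 3.0e-09) and by 2.26 ± 0.08 at 6 h (adjusted p = 1.5e-09). Its partner Psmg3 did not differ beyond the spread of its arrays at 0 h on the spike-in scale, with 11.12, 11.36 and 11.30 on np0 and 11.30, 11.42 and 11.25 on p0, which overlap (0.07, 95% interval -0.15 to 0.28). At 6 h Psmg3 read 11.86, 11.70 and 11.91 outside polysomes and 12.66, 12.84 and 12.88 in them, with no overlap (0.97 ± 0.10, adjusted p = 6.9e-06). The third probe of Psme3ip1, named here after its values were seen, was also lower in polysomes (-2.03 at 0 h and -0.92 at 6 h), but the other 2 probes of that gene were higher (1.77 and 1.75 at 0 h).

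These distributions depend on the scale that links the fractions, which the spike-ins set. With each array scaled to its 75th percentile instead, 58 member probes were higher in polysomes and 6 lower at 0 h, and 60 and 7 at 6 h, and Psmb9 then had -0.07 at 0 h (adjusted p = 0.22) and Psmb10 -0.40 at 6 h (adjusted p = 4.5e-05). Psmg3 was then lower in polysomes at both times (-0.83, adjusted p = 1.7e-05, and -0.37, adjusted p = 0.0042), and so was Psme3 (-0.28 and -0.55), while the member median stayed 1.09 and 1.57 above 0 with the bright probes at -0.02 and -0.01.

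In the polysomal fraction, most proteasome mRNAs rose over the 6 h, whereas Psmb9 and Psmb10 of the immunoproteasome and a few other members fell. Of the 69 member probes, 58 rose and 6 fell, where 50.6% of all probes rose and 11.7% fell (62.5% and 18% of the bright probes). The median change was 0.73 over the members and 0.57 over the bright probes, a small gap beside the range of the members from -0.66 to 1.79. By more than 1 on the log2 scale rose 17 member probes, beside 19.2% of all probes, and none fell by that much. Of bright probes, 17 of the 65 members and 5828 of all 20366 rose by more than 1. The members' share was thus not above that of the bright probes. Counted in main probes, the rise was called for 7 of 7 constitutive beta, 7 of 8 alpha, 5 of 6 ATPase, 2 of 3 base scaffold, 8 of 8 lid, 6 of 7 chaperone, 5 of 6 activator and 1 of 3 immunoproteasome genes.

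Psmb2, a beta subunit without an active site, rose most. It read 10.81, 11.08 and 11.02 on the p0 arrays and 12.67, 12.75 and 12.86 on the p6 arrays, and stayed at 9.21, 9.24 and 9.23 on np0 and 9.20, 9.23 and 9.23 on np6. The polysomal groups did not overlap (1.79 ± 0.08, 3.45-fold, adjusted p = 5.6e-08), and the non-polysomal groups did (0.00, 95% interval -0.19 to 0.18). Psmg3 followed with a rise of 1.47 ± 0.10 (2.77-fold, adjusted p = 5.9e-07). The lid subunit Psmd8 read 11.42, 11.62 and 11.60 on p0 and 12.76, 12.79 and 12.90 on p6, with no overlap (1.27 ± 0.08, 2.42-fold, adjusted p = 3.2e-07). At the other end of the groups in which most genes rose, the ATPase Psmc6, named after its values were seen, had 0.01 (adjusted p = 0.93) and Psmc1 0.40 ± 0.08 (adjusted p = 0.0015).

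The members that fell in polysomes were Psme4, Psmb9, Psmd10, Psmb10 and Psmd1. Psme4 codes for a large activator that caps the core without ATPases. Its main probe read 13.34, 13.58 and 13.46 on p0 and 12.70, 12.82 and 12.87 on p6, with no overlap (-0.66 ± 0.09, 0.632-fold, adjusted p = 1.2e-04). Its second probe also fell (-0.40, adjusted p = 0.0047), and the third, not bright on all arrays, gave -0.28 (adjusted p = 0.42). Psmd10, or gankyrin, a chaperone of the base that is known as a cancer-associated protein, read 11.41, 11.64 and 11.68 on p0 and 10.90, 10.96 and 11.21 on p6 (-0.55 ± 0.10, adjusted p = 9.0e-04). All p6 arrays of Psmd10 were below all p0 arrays. Psmd1, a scaffold of the base, had the smallest of these changes (-0.24 ± 0.07, adjusted p = 0.016).

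The direction of changes in polysomes turned with the scaling for many members, and not only for the smallest changes. With the 75th percentile, 40 member probes rose and 9 fell. With quantile normalization, which forces all arrays to 1 distribution, 16 rose and 33 fell. The member median was then -0.16, beside 0.73 on the spike-in scale, and the bright median was 0.03. The rises of Psmb2, Psmg3, Psmd8, Psmd9, Psmd5 and Psmg4 and the fall of Psme4 were called under each of the 24 alternatives run. These were 7 of the 24 polysomal changes called among the genes named by rule.

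In the non-polysomal fraction the members went in both directions. Of the 69 probes, 16 rose and 18 fell, where 20.5% and 19.7% of all probes did (36.2% and 32% of the bright probes), so the members' shares were below those of bright probes. The count of rises includes Psma8, a testis subunit that was not well above background on any array and is given no direction here. The median was -0.09 over the members and 0.03 over the bright probes. None rose by more than 1. By more than 1 fell 4, beside 8.14% of all probes and 2168 of the 20366 bright probes. They were Psmb9, Psmd13, Psmd10 and the second probe of Psmb8. The constitutive beta ring lay between -0.31 and 0.16, with 2 of 7 called, both lower. Of the ATPases 1 of 6 was called, Psmc6 with -0.80, and the others lay between -0.12 and -0.05.

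Psmd13, a lid subunit, fell outside polysomes while it rose in them. It read 7.58, 7.45 and 7.62 on np0 and 6.28, 6.37 and 6.19 on np6 (-1.27 ± 0.11, 0.416-fold, adjusted p = 6.3e-06). On the polysomal arrays it read 9.27, 9.68 and 9.51 at 0 h and 10.08, 9.96 and 10.12 at 6 h (0.56 ± 0.11, 1.48-fold, adjusted p = 0.0015). Neither pair of groups overlapped, and the 2 fractions moved apart. Psmd10 fell in both fractions, with 9.68, 9.72 and 9.64 on np0 and 8.60, 8.57 and 8.58 on np6 (-1.09 ± 0.10, 0.469-fold, adjusted p = 9.2e-06).

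Several chaperones and Psme3 rose outside polysomes. Psmg4 rose by 0.97 ± 0.08 (1.96-fold, adjusted p = 3.6e-06), from 11.83 to 11.92 on the np0 arrays to 12.81 to 12.89 on the np6 arrays. Psme3, the nuclear relative of Psme1 and Psme2, read 11.96, 11.98 and 12.00 on np0 and 13.06, 12.76 and 12.97 on np6, with no overlap (0.95 ± 0.10, 1.93-fold, adjusted p = 3.1e-05), and it rose likewise in polysomes (1.12 ± 0.10, 2.17-fold). Psmd5, a chaperone of the base, read 9.90, 9.96 and 9.94 on np0 and 10.70, 10.71 and 10.65 on np6 (0.75 ± 0.08, 1.68-fold, adjusted p = 4.3e-05). In all, 4 of the 7 chaperone genes rose outside polysomes and 2 fell, and 6 rose and 1 fell in them. The 2 bright probes of the lid subunit Psmd7, named after their values were seen, disagreed outside polysomes (0.27 and -0.61, both called), while both rose in polysomes.

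**Figure D2:**
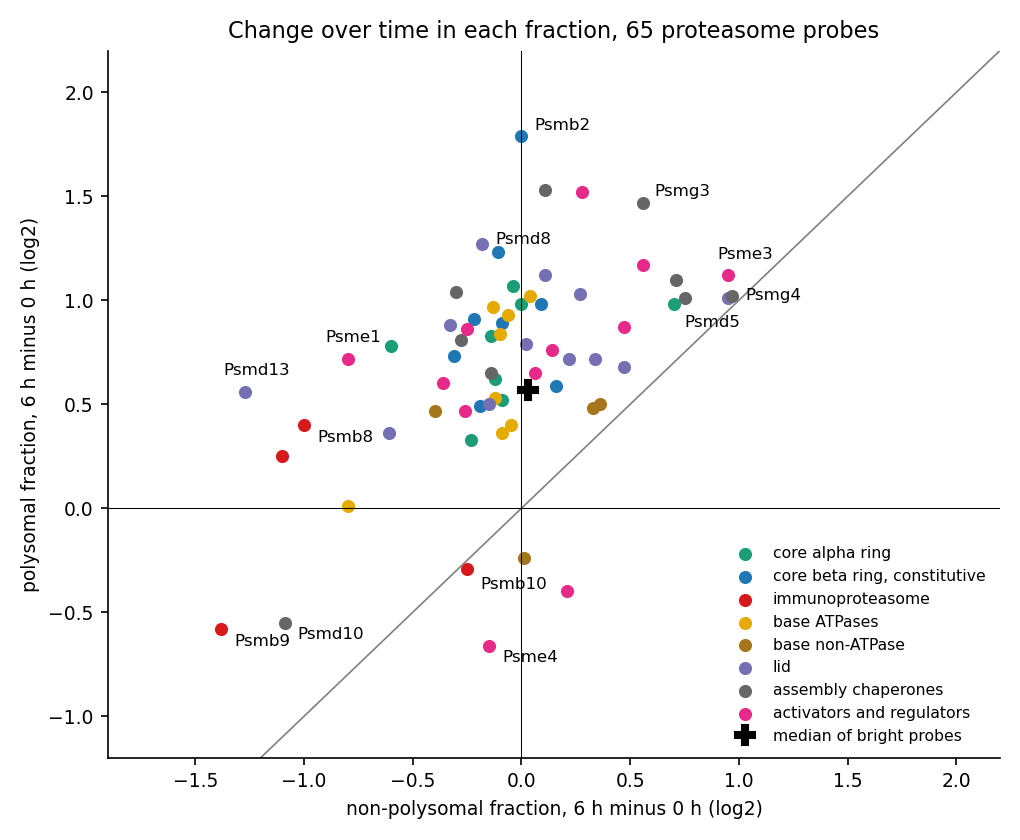
Change from 0 h to 6 h in the non-polysomal (x axis) and polysomal fraction (y axis), log2, of the 65 bright member probes, coloured by part of the proteasome. The grey line marks equal change in both fractions and the black cross the median of all bright probes (0.03 and 0.57). Psmb8, Psmb9, Psmd13, Psmd10 and Psme1 lie to the left, Psmb10 near the line of equal change, Psme3, Psmg4 and Psmd5 to the right, and Psmb2 at the top.

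The M-value, (p6 - np6) - (p0 - np0), measures how far the polysomal excess of an mRNA changed over the 6 h. It was above 0 for most of the complex, with single lid, beta, activator, immunoproteasome, alpha and chaperone genes at the top. Of the 69 member probes, 52 had a called M-value above 0 and 2 below, where 32.1% and 3.98% of all probes did (53.7% and 6.29% of the bright probes). The 52 include the main probe of Psmb11, the thymus subunit, which was well above background on 1 array and is given no direction here (its second probe gave 0.02 where the main one gave 1.77). The median was 0.77 over the members and 0.50 over the bright probes, and 47 of the 69 lay above the bright median. M-values above 1 were called for 20 member probes, beside 12.1% of all probes, and none was below -1. Among bright probes, M-values above 1 were called for 19 of the 65 members and for 3583 of all 20366.

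By part, the called M-values of the constitutive beta ring were 7 of 7, from 0.43 for Psmb7 to 1.79 for Psmb2. In the alpha ring 6 of 8 were called, with Psma5 highest (1.38 ± 0.11, adjusted p = 1.9e-05). Psma5 read 14.76, 14.93 and 14.96 on p0 and 15.65, 15.57 and 15.77 on p6, above all p0 arrays, and 13.20, 13.28 and 13.21 on np0 and 12.66, 12.62 and 12.60 on np6, below all np0 arrays. All 6 ATPases were called within a narrow range, from 0.45 for Psmc1 (adjusted p = 0.0095) to 0.98 for Psmc4 (adjusted p = 2.5e-04), and their median was 0.23 above that of the bright probes. With the 75th percentile Psmc1 and Psmc3 (both 0.01) were not called, and with quantile normalization Psmc1 had -0.35. Psmc4 read 13.22, 13.37 and 13.20 on p0 and 14.26, 14.05 and 14.27 on p6 while np0 (10.75, 10.87 and 10.68) and np6 (10.75, 10.66 and 10.72) overlapped.

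The base subunits without ATPase activity were the group nearest to no change. Psmd4, a ubiquitin receptor, had 0.87 ± 0.10 (adjusted p = 1.6e-04), from 13.40, 13.58 and 13.42 on p0 to 13.96, 13.94 and 13.93 on p6, and from 11.23, 11.34 and 11.21 on np0 to 10.80, 10.90 and 10.88 on np6. The scaffold Psmd1 had -0.25 (95% interval -0.48 to -0.03, adjusted p = 0.077). Psmd1 read 11.45, 11.60 and 11.57 on p0 and 11.28, 11.25 and 11.37 on p6, while its np0 and np6 arrays overlapped between 8.91 and 9.03. In the lid 7 of 8 were called, from Psmd13 (1.83 ± 0.16, 3.56-fold, adjusted p = 2.4e-05) and Psmd8 (1.45 ± 0.11, adjusted p = 1.3e-05) down to Psmd12, which was not called (0.38, 95% interval 0.06 to 0.70, adjusted p = 0.062).

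Among the chaperones 5 of 7 were called. Psmd9, a chaperone of the base, had the highest (1.34 ± 0.12, adjusted p = 3.0e-05), with 10.14, 10.34 and 10.12 on p0 and 11.21, 11.24 and 11.28 on p6, and 8.30, 8.50 and 8.45 on np0 and 8.13, 8.05 and 8.17 on np6. Psmg4 had 0.05 (95% interval -0.19 to 0.30), since it rose by like amounts in both fractions, and Psmd5 and Psme3 likewise had 0.26 (adjusted p = 0.11) and 0.17 (adjusted p = 0.38). Psme4 was the only gene whose main probe had a called M-value below 0 (-0.51 ± 0.13, adjusted p = 0.011), and its second probe had -0.62 (adjusted p = 0.0053). The call of the main probe was kept in 20 of 24 alternatives, being lost without any 1 replicate number (adjusted p up to 0.09) and with a line fitted to the spike-ins (-0.24), and averaging the probes of each gene left 0 genes with a called M-value below 0. With the 75th percentile Psmb10 (-0.49), Psmd1 (-0.70), Psmd2 (-0.29) and Psmg4 (-0.39) were also called below 0.

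**Figure D3:**
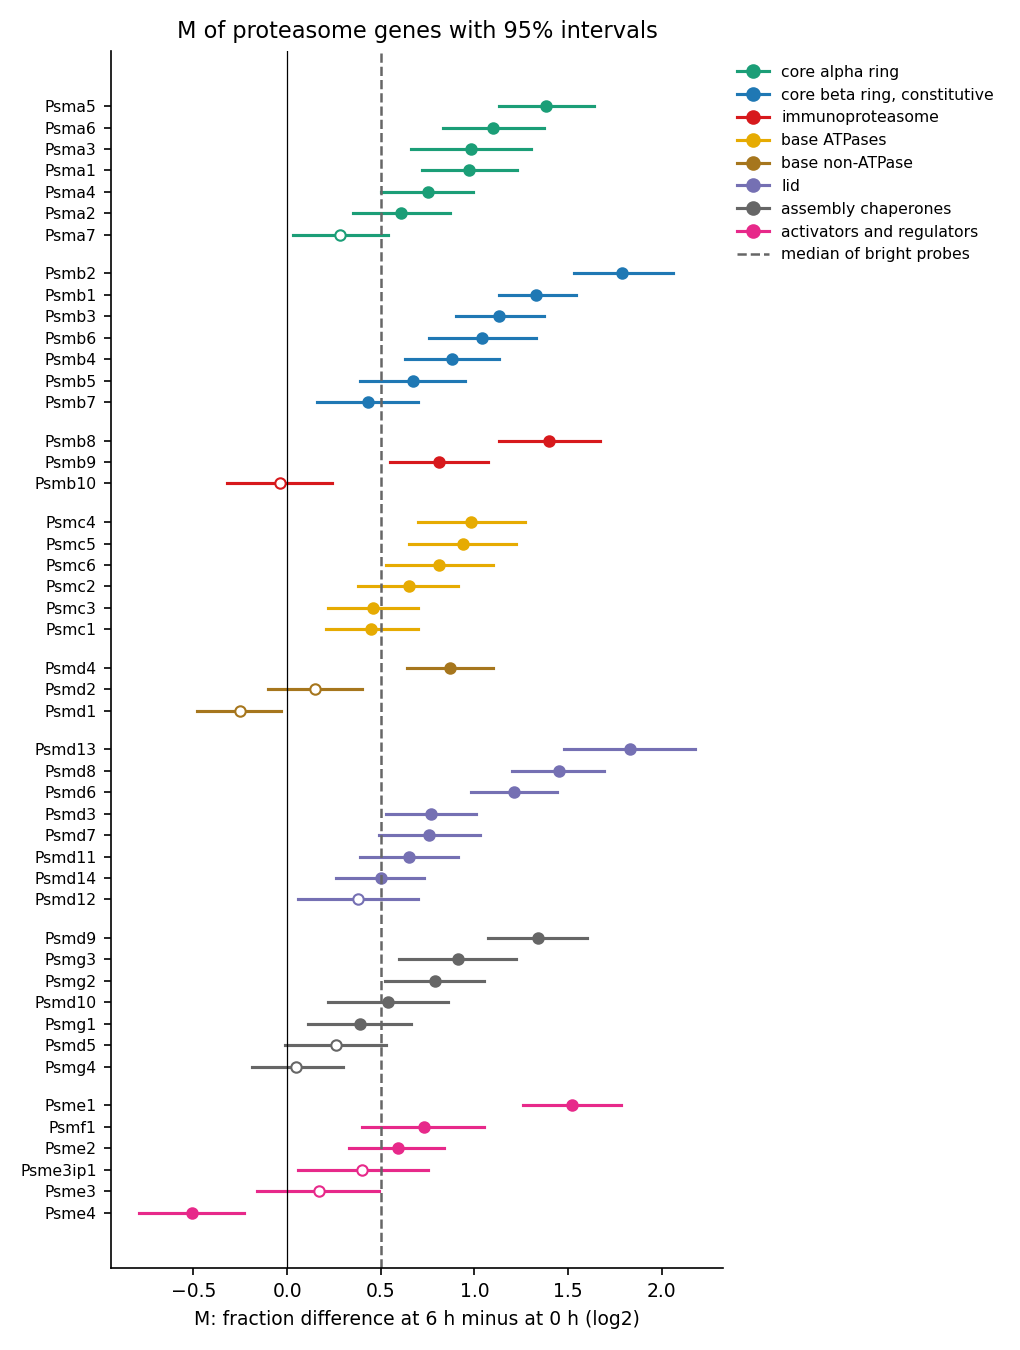
M-value (x axis, log2) of the main probe of each gene bright on all arrays, by part of the proteasome, with 95% intervals of the limma fit. Filled points have an adjusted p below 0.05, and the dashed line marks the median of all bright probes (0.50). Psmd13, Psmb2 and Psme1 lie highest, Psmb10 lies near 0, and Psme4 and Psmd1 lie below 0.

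The excess of the members over the bright probes in M was not kept under every scaling. With the 75th percentile the medians were 0.33 and 0.06, with quantile normalization 0.03 and 0.02, and with a line fitted to the spike-ins 1.12 and 1.07. The M-values of Psma5, Psmb2, Psmb8, Psmb9, Psmd8, Psmd9, Psmd13 and Psme1 were called under each of the 24 alternatives, 8 of the 19 called among the genes named by rule.

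**Figure D4:**
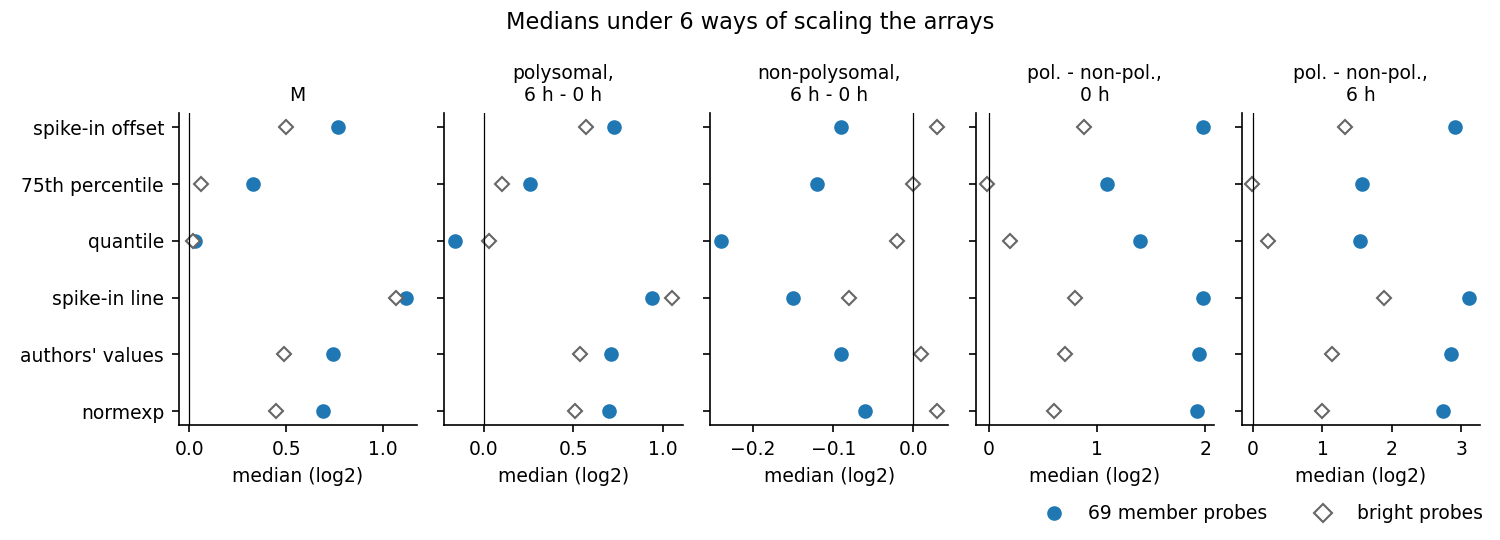
Median log2 value (x axis) over the 69 member probes (filled circles) and over all bright probes (open diamonds) for the 5 comparisons (columns) under 6 ways of scaling or correcting the arrays (rows). The gap between members and bright probes is kept in both fraction differences, and narrows to 0.03 against 0.02 for M under quantile normalization. For the polysomal change it reverses under quantile normalization (-0.16 against 0.03) and with the line fitted to the spike-ins (0.94 against 1.05).

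The immunoproteasome subunits fell outside polysomes, all 3 of them, and Psmb9 and Psmb10 also fell in polysomes, where their constitutive counterparts rose on the spike-in scale. Of all bright probes, 32% fell outside polysomes and 18% fell in them. The fall of Psmb10 outside polysomes was small (-0.25), and its call was kept in 11 of 24 alternatives. Psmb8 replaces Psmb5, the chymotrypsin-like subunit. Psmb8 read 8.49, 8.76 and 8.61 on np0 and 7.68, 7.57 and 7.61 on np6, and 10.33, 10.46 and 10.45 on p0 and 10.75, 10.82 and 10.87 on p6. It fell by 1.00 ± 0.09 outside polysomes (0.501-fold, adjusted p = 5.7e-06) and rose by 0.40 ± 0.09 in them (1.32-fold, adjusted p = 0.0026), with no overlap in either fraction. Its second probe gave -1.10 and 0.25. The polysomal rise was below the bright median of 0.57 and turned to -0.07 with the 75th percentile, which was not called.

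Psmb9 replaces Psmb6, the caspase-like subunit. Psmb9 read 8.25, 8.37 and 8.24 on np0 and 6.89, 6.91 and 6.91 on np6, the largest fall of any member in that fraction (-1.38 ± 0.08, 0.383-fold, adjusted p = 4.6e-07). In polysomes it read 8.98, 9.24 and 9.10 at 0 h and 8.46, 8.54 and 8.60 at 6 h, again without overlap (-0.58 ± 0.08, 0.671-fold, adjusted p = 1.6e-04). The fall outside polysomes was called under all 24 alternatives. The fall in polysomes was -0.05 (adjusted p = 0.62) with a line fitted to the spike-ins.

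Psmb10 replaces Psmb7, the trypsin-like subunit, and changed least. It read 13.29, 13.36 and 13.26 on np0 and 13.11, 13.08 and 12.97 on np6 (-0.25 ± 0.09, adjusted p = 0.046), and 14.13, 14.41 and 14.32 on p0 and 13.97, 13.92 and 14.09 on p6 (-0.29 ± 0.09, adjusted p = 0.016). The groups did not overlap in either fraction. Its M-value was -0.04 (95% interval -0.32 to 0.24), and -0.49 and -0.98, both called, with the 75th percentile and with quantile normalization, beside 1.40 ± 0.12 for Psmb8 (adjusted p = 2.6e-05) and 0.81 ± 0.12 for Psmb9 (adjusted p = 4.7e-04). Both falls of Psmb10 were small enough that leaving out single arrays ended the call, in 9 of 12 cases outside polysomes and in 2 of 12 in them (without the second p0 array -0.23, adjusted p = 0.052, and without the second p6 array -0.26, adjusted p = 0.056).

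The constitutive counterparts rose in polysomes on the spike-in scale. With quantile normalization all 3 turned (-0.63 for Psmb5, -0.49 for Psmb6 and -0.22 for Psmb7), and with the 75th percentile Psmb5 (0.01, adjusted p = 0.92) and Psmb7 (0.12, adjusted p = 0.10) were not called. Psmb5 read 14.15, 14.32 and 14.09 on p0 and 14.61, 14.66 and 14.75 on p6 (0.49 ± 0.09, adjusted p = 9.6e-04), and 11.61, 11.78 and 11.64 on np0 and 11.57, 11.51 and 11.40 on np6 (-0.19, adjusted p = 0.14). Psmb6 read 14.73, 14.99 and 14.79 on p0 and 15.55, 15.54 and 15.61 on p6 (0.73 ± 0.09, adjusted p = 5.4e-05), and 12.62, 12.82 and 12.78 on np0 and 12.48, 12.34 and 12.46 on np6 (-0.31 ± 0.09, adjusted p = 0.017). Psmb7 read 11.99, 12.28 and 12.13 on p0 and 12.70, 12.71 and 12.77 on p6 (0.59 ± 0.08, adjusted p = 1.8e-04), and 9.88, 10.00 and 9.82 on np0 and 10.08, 10.06 and 10.06 on np6 (0.16, adjusted p = 0.17). For all 3, every p6 array was above every p0 array.

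**Figure D5:**
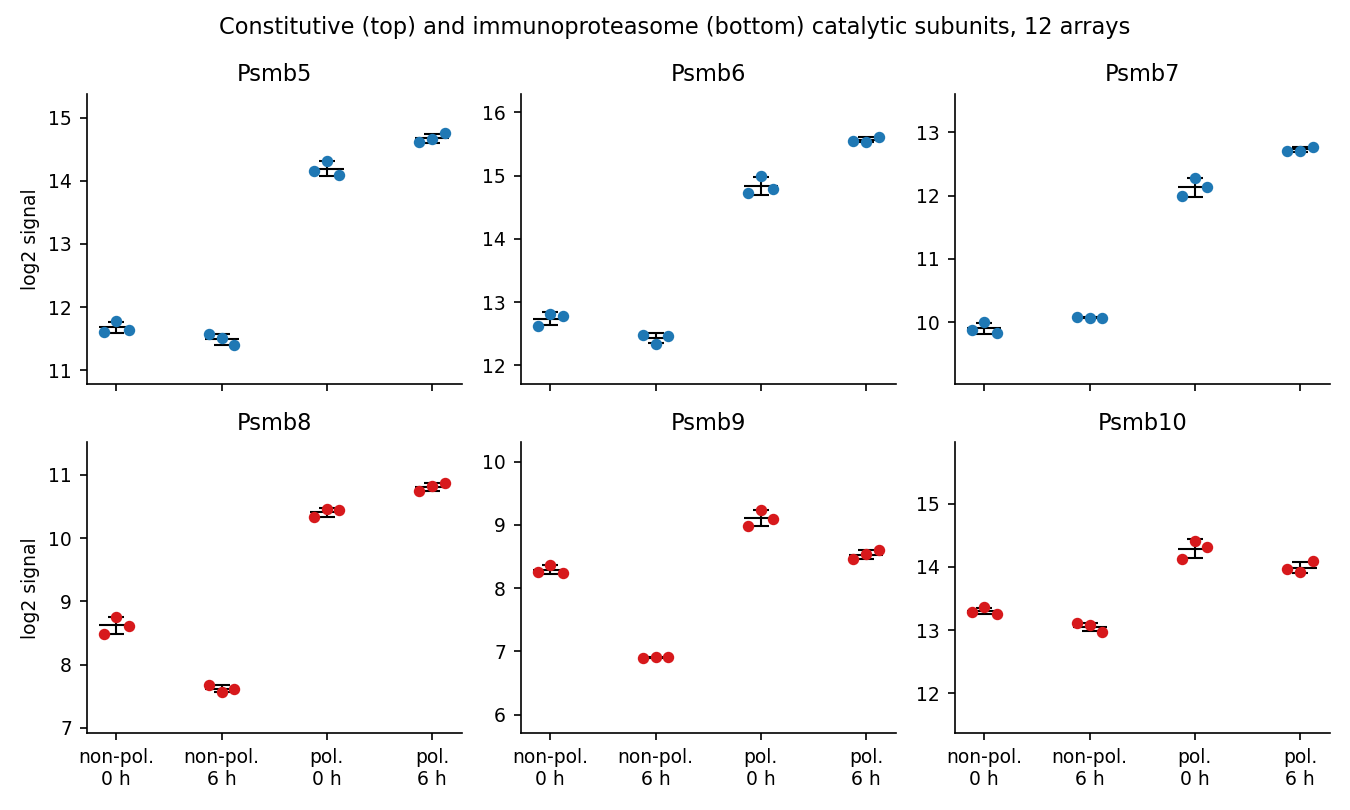
Log2 signal (y axis, 4.6 units high in every panel) of the constitutive subunits Psmb5, Psmb6 and Psmb7 (top) and of the immunoproteasome subunits Psmb8, Psmb9 and Psmb10 that replace them (bottom) on the 12 arrays. Points are arrays and bars mark the mean and SD of 3 arrays. The lower row falls from 0 h to 6 h in the non-polysomal fraction in all 3 panels, and Psmb9 and Psmb10 fall in the polysomal fraction.

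Set against its counterpart on the same array, a ratio that no common offset between arrays can change, the immunoproteasome subunit lost ground in 5 of 6 cases. This ratio was added after the data were seen. Psmb9 over Psmb6 fell by 1.07 on the log2 scale outside polysomes and by 1.31 in them, and Psmb10 over Psmb7 fell by 0.42 and by 0.89, all with no overlap between the 3 arrays at 0 h and the 3 at 6 h. Psmb8 over Psmb5 fell by 0.81 outside polysomes with no overlap, and in polysomes changed by -0.09 with overlap. A two-sided exact permutation test of 3 against 3 arrays gave p = 0.1 for each of the 5, the smallest that this design allows (adjusted over 6 ratios 0.12), and p = 0.3 for the sixth.

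The genes of the immunoproteasome subunits Psmb8 and Psmb9 lie close to a partner in antigen presentation, whereas Psmb10 lies on chromosome 8. In RefSeq's annotation of GRCm38.p6, Psmb9 and Tap1, which carries peptides into the endoplasmic reticulum, start 226 bases apart on opposite strands of chromosome 17, with Psmb8 beside them. Their promoters are shown because both genes fell, and because the windows of Psmb9 and Tap1, on opposite strands, overlap except for 1 base at each end. Each window holds 30 bases around a match, which is in capitals.
Psmb8 (chr17:34198088-34198117, plus strand): tcctccgctgTTCCCAGAAgatgccccccc
Psmb9 (chr17:34187321-34187350, minus strand): gcgcagccgctgATTGGaaagccgagcccc
Tap1 (chr17:34187322-34187351, plus strand): gggctcggctttCCAATcagcggctgcgcg
Psme1 (chr14:55578493-55578522, plus strand): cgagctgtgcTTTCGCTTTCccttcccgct
Psmb5 (chr14:54618023-54618052, minus strand): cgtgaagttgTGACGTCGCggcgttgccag
Psmb6 (chr11:70525338-70525367, plus strand): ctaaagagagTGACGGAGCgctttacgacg
The capitals mark TTCNNNGAA, the gamma-activated site, in Psmb8, the CCAAT box in Psmb9 and Tap1, the core of the interferon-stimulated response element (GAAA, 2 free bases, GAAA) on the reverse strand in Psme1, and TGACNNNGC, the core bound by NRF1 and NRF2, in Psmb5 and Psmb6.

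These 4 motifs were searched on both strands from 250 bases before to 50 bases after the start, in 45 promoters of 41 member genes and in 32851 promoters in all, and matches of different motifs may share bases. TGACNNNGC was in 13.3% of the member promoters and 12.4% of all, the response element core in 11.1% and 3.4%, TTCNNNGAA in 6.7% and 8.3%, and CCAAT in 33.3% and 37.4%. The 5 member genes with that core were Psmb3, Psmd4, Psmd9, Psme1 and Psmg4. Of the immunoproteasome subunits, Psmb8 had 1 match to TTCNNNGAA and Psmb9 1 to CCAAT. A match is a description of letters and no evidence of binding.

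Psme1 and Psme2, which together form the interferon-induced activator ring and are neighbours on chromosome 14, differed from each other. Psme1 read 11.45, 11.65 and 11.57 on np0 and 10.84, 10.78 and 10.66 on np6 (-0.80 ± 0.08, 0.576-fold, adjusted p = 2.3e-05), and 13.48, 13.63 and 13.46 on p0 and 14.21, 14.25 and 14.29 on p6 (0.72 ± 0.08, 1.65-fold, adjusted p = 3.3e-05). It fell outside polysomes and rose in them with no overlap, and its M-value was 1.52 ± 0.12 (2.87-fold, adjusted p = 1.4e-05). Psme2 read 14.05, 14.11 and 14.10 on np0 and 14.25, 14.12 and 14.09 on np6, which overlap (0.06, 95% interval -0.12 to 0.24), and 15.33, 15.48 and 15.55 on p0 and 16.10, 16.04 and 16.17 on p6, which do not (0.65 ± 0.08, adjusted p = 5.9e-05). Its M-value was 0.59 ± 0.11 (adjusted p = 0.0027). Quantile normalization turned both values of Psme2 (-0.67 and -0.43), and the 75th percentile ended the call of its M-value (0.14, adjusted p = 0.21). The difference between these genes was not tested.

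The partners of the immunoproteasome in antigen presentation and interferon response, a list of 12 genes of which 11 had a probe, were divided in polysomes, where 6 rose and 4 fell by their main probes, beside 62.5% and 18% of all bright probes. Outside polysomes 2 rose and 7 fell, beside 36.2% and 32%. Irf1, an interferon-induced transcription factor, fell most, by 1.75 in polysomes (adjusted p = 7.0e-08) and by 2.40 outside them (adjusted p = 2.3e-08). Tap1 read 9.40, 9.57 and 9.49 on p0 and 8.22, 8.24 and 8.32 on p6 (-1.23, adjusted p = 7.4e-07), and 6.87, 7.01 and 6.81 on np0 and 5.05, 5.08 and 5.23 on np6 (-1.78, adjusted p = 1.2e-07), with no overlap. Tap2, its partner in the transporter, fell by 0.88 in polysomes and by 1.13 outside them. The peptide-loading and presenting genes Tapbp (1.01), H2-K1 (0.98), B2m (0.92) and H2-D1 (0.91) rose in polysomes.

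A list of 25 other partners of the proteasome, 23 of them with a probe, had 14 called M-values above 0 and 2 below, with a median of 0.59, beside 53.7% and 6.29% of all bright probes and their median of 0.50. In polysomes 13 rose and 3 fell, beside 62.5% and 18%, and outside them 9 rose and 6 fell, beside 36.2% and 32%. These shares were near those of all bright probes. Adrm1, a ubiquitin receptor of the base, rose by 1.47 in polysomes and Pomp, the chaperone that completes the core, by 1.08. Nfe2l1, which codes for NRF1, the transcription factor that drives proteasome genes, fell by 1.62 outside polysomes (adjusted p = 1.3e-07) and by 0.36 in them (adjusted p = 0.0031). Between the fractions, 21 of the 23 partners were higher in polysomes and 2 lower at both times. Of the bright probes, 64% were higher and 21.1% lower at 0 h, and 75.7% and 13.6% at 6 h. Sem1, a small lid subunit outside the naming rule, was lower in polysomes by 3.04 at 0 h and by 2.43 at 6 h, on the same side as Psmg4. The other was Zfand2a (-2.44 and -2.20).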

How the data were processed

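The deposited scanner files hold spot intensities that the authors extracted with Feature Extraction 10.7.1.1 (background-subtracted, not normalized between arrays), and a table deposited by the authors holds log2 values, which are the log2 median pixel intensity plus a constant per array. The labels' time and fraction set the 4 groups. Spots marked as outliers (94 to 221 per array) were left out, log2 background-subtracted intensities were averaged per probe, and each array was shifted by the mean of 10 spike-in transcripts. Accessions were paired with symbols through RefSeq (18754 of 32839). A single limma 3.58.1 fit (R 4.3.3, with the data.table package, version 1.17.8) of the 4 groups over 41174 probes gave every contrast, with Benjamini-Hochberg adjustment over all probes, and was tested on simulated data. Changes were called at an adjusted p of 0.05. Replicates are the study's biological replicates.

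The members and lists were chosen with earlier results of these data known. Named with values were Psmb5 to Psmb10, Psme1 and Psme2, in each part the highest and lowest M, the 3 highest and 3 lowest changes over time in each fraction, genes whose probes disagree in M, and members not detected. Alternatives were 75th percentile scaling, quantile normalization, the authors' log2 values, a line fitted to the spike-ins, leaving out dim probes, keeping outlier spots, normexp with an offset of 50 on the median signal (the files used here hold no mean signal), a mean-variance trend in eBayes, a block for the replicate number, gene means, and leaving out arrays or replicate numbers. A table of promoter sequences gave 41 of the 49 genes. The values of 1 gene of the antigen presentation list are not reported here.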

Additional observations from a re-analysis of the deposited data

Results flagged for a closer look

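For 7 of the genes named by rule the 2 fractions moved in opposite directions over the 6 h, each change being called. The share of all probes with this pattern was not counted. Of the bright probes, 62.5% rose in polysomes and 32% fell outside them. The naming rule partly picked high M-values and extreme changes, which favours such genes. The M-value is the difference of these 2 changes in the same fit, so its call, made for all 7, adds no separate support. The 7 were Psmd13 with an M-value of 1.83, Psme1 with 1.52, Psmb8 with 1.40, Psma5 with 1.38, Psmd9 with 1.34, Psmb6 with 1.04 and Psmd4 with 0.87. Outside that rule, Psmd6 (1.21) and Psmb3 (1.13) met the same criteria and are named after their values were seen. All 7 fell outside polysomes and rose in them. The polysomal rise turned negative with quantile normalization for Psma5 (-0.46), Psmb6 (-0.49), Psmb8 (-0.20), Psmd4 (-0.54) and Psme1 (-0.28), and for Psmb8 also with the 75th percentile (-0.07, not called). For Psmd13 it was not called with the 75th percentile (0.09) or with quantile normalization (0.03), and for Psmd9 it was called under all 24 alternatives. The fall outside polysomes was called under all 24 alternatives for Psma5, Psmb8, Psmd13, Psmd4 and Psme1, and was lost for Psmb6 and Psmd9 when single arrays were left out. The second probe of Psmd9 gave 0.11 outside polysomes (adjusted p = 0.38), where its main probe gave -0.30.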

How the results depend on the processing

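The member medians of both fraction differences stayed above 0 under every alternative, though single genes turned with the 75th percentile, and the median polysomal change turned with quantile normalization. With the 75th percentile the member medians were 0.33 for M, 0.26 for the polysomal change, 1.09 and 1.57 for the fraction difference at 0 h and 6 h, and calls below 0 numbered 8 for M, 28 for the non-polysomal change, 6 at 0 h and 7 at 6 h. With quantile normalization the medians were 0.03 for M, -0.16 for the polysomal and -0.24 for the non-polysomal change, and 1.40 and 1.54 for the fraction differences. M was then called above 0 for 21 and below 0 for 23 member probes, the polysomal change for 16 and 33, and 40 fell outside polysomes and 6 were lower in polysomes at 6 h. With a line fitted to the spike-ins the medians were 1.12 for M, 0.94 for the polysomal change and 3.11 at 6 h, and calls below 0 were 0 for M, 1 for the polysomal change and 1 at 6 h. For the polysomal change the member median was below the bright median both with the line (bright median 1.05) and with quantile normalization (bright median 0.03). Normexp gave 1 below 0 at 6 h, and gene means gave 0 below 0 for M.

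Quantile normalization reversed the polysomal change of Psma5 (-0.46), Psmb5 (-0.63), Psmb6 (-0.49), Psmb7 (-0.22), Psmb8 (-0.20), Psmc1 (-0.52), Psmc4 (-0.03), Psmd12 (-0.27), Psmd4 (-0.54), Psme1 (-0.28) and Psme2 (-0.67), the non-polysomal change of Psme2 (-0.24), and the M-value of Psmb5 (-0.26), Psmb7 (-0.27), Psmc1 (-0.35), Psmd10 (-0.06), Psmd12 (-0.47), Psmd5 (-0.43), Psme2 (-0.43) and Psmg4 (-0.18). The 75th percentile reversed the M-value of Psmb7 (-0.02) and Psmg4 (-0.39). It also reversed the polysomal change of Psmb8 (-0.07), Psmc1 (-0.08) and Psmd4 (0.00), and the line that of Psmd1 (0.09). Reversed means here a changed sign, whether called or not. Of these values with the 75th percentile only that of Psmg4 was called, and its M-value on the spike-in scale (0.05) was not. Psma8, not detected, had M-values of 0.40 with the authors' log2 values and 0.30 with normexp. The change over the 6 h in the polysomal log2 ratio of Psmb8 to Psmb5, -0.09 on the spike-in scale, turned. It was 0.43 with quantile normalization and 0.20 with the line. The cause was not tested.

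Leaving out 1 array or 1 replicate number gave 38 to 53 calls above and 0 to 3 below 0 for M, 51 to 58 and 3 to 6 for the polysomal change, 8 to 18 and 10 to 18 for the non-polysomal change, 63 and 2 at 0 h, and 65 to 66 and 2 at 6 h. Single arrays ended the non-polysomal calls of Psmb10, Psmb6, Psmd9 and Psmd12 and the polysomal calls of Psmb10 and Psmd1. With the replicate number as a block, 50 M-values were called above and 2 below 0, 58 and 6 polysomal changes, and 15 and 16 non-polysomal changes. The differences between fractions were called for 63 and 2 at 0 h and 65 and 2 at 6 h. Psmb10 outside polysomes was no longer called (-0.25). Arrays of the same number correlated between -0.10 and 0.42 in their deviations, over 0.1 in 4 of 18 pairs. The main fit did not take the numbers as pairs. Both pools are parts of a gradient, so those of 1 number may come from the same lysate, which a low correlation cannot exclude. The fit with the block allows for a shared effect of the number. Dim probes (Psma8, Psmb11) have only a bound, and their values were given no direction.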
